A study of Rattus norvegicus with 18 samples.

Results

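The nuclear genes for the subunits of oxidative phosphorylation were followed through 5 regions of the healthy rat heart. Total RNA came from whole tissue pieces of male Sprague Dawley rats. The regions were the superior sinoatrial node (sSAN), the inferior sinoatrial node (iSAN), the right atrium (RA) and the left atrium (LA), each from rats 1 to 4, and the left ventricle (LV), here from rats 3 and 4 only. Tissue was taken at 59 days of age from rats 1 and 2 and at 70 days from rats 3 and 4, the labels name no allele and no treatment, and the nodes were dissected by hand together with whatever tissue surrounded them. Members were the protein-coding rows of the deposited gene table whose symbol starts with Ndufa, Ndufb, Ndufc, Ndufs, Ndufv, Uqcr, Cox4 to Cox8 or Atp5, with Sdha, Sdhb, Sdhc, Sdhd, Cyc1 and Cycs. This rule took 98 of 32883 genes, with 95 distinct symbols, since Cox6b1, Ndufv3 and Uqcrb each stand in the table on 2 chromosomes.

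The respiratory chain passes electrons from NADH and succinate through complexes I and II to ubiquinone, then through complex III and cytochrome c to oxygen at complex IV, and complex V uses the proton gradient to make ATP. Most subunits are encoded in the nucleus and a few in the mitochondrial genome. Complexes I, III, IV and V are built from both, and complex II from nuclear genes alone. Heart muscle is rich in these complexes, and complex IV has subunits in pairs of isoforms, where the heart type (Cox6a2, Cox7a1, Cox8b) is used in striated muscle and the liver type (Cox6a1, Cox8a) in most other tissues. By complex, the members were 37 genes for complex I, 4 for complex II, 10 for complex III with cytochrome c1 (Cyc1), 22 for complex IV, 16 for complex V and 1 for cytochrome c. The same name pattern also took 8 assembly factors of complex I, Ndufaf1 to Ndufaf8, which are not subunits and are given apart. Ndufa4 and Ndufa4l2 carry complex I names and were placed in complex IV, where the NDUFA4 protein is now known to sit.

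The promoters of 3 isoform genes of complex IV and of Sdhb are shown, because the ratio of Cox8b to Cox8a, the level of Cox6a2 and that of Sdhb recur in the results. Cox6a1 had no sequence in the table. Sequences are from RefSeq on the GRCr8 build, run from 250 bases before to 50 bases after the start of the gene, and are written 5′ to 3′ on the strand of the gene. Capitals mark the motifs searched on both strands, which were the E-box of muscle factors CAGCTG, the ETS core CCGGAAG, the YY1 core AAGATGGC, the NRF1 core GCATGCGC and the half-site of estrogen-related receptors AAGGTCA. On the opposite strand the last 4 read CTTCCGG, GCCATCTT, GCGCATGC and TGACCTT.
Cox6a2 (chr1:192219667-192219966, minus strand): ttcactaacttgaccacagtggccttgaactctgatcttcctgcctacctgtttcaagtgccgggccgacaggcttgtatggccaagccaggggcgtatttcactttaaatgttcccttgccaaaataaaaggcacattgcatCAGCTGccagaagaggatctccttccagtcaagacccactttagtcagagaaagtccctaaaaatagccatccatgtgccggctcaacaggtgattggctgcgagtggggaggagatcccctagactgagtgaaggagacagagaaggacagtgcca
Cox8b (chr1:205408224-205408523, minus strand): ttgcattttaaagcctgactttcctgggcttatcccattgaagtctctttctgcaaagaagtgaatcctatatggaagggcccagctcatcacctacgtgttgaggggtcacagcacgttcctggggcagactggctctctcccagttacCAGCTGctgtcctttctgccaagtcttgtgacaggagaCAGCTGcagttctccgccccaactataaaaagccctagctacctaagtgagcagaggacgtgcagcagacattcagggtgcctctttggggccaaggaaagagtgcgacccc
Cox8a (chr1:213833574-213833873, minus strand): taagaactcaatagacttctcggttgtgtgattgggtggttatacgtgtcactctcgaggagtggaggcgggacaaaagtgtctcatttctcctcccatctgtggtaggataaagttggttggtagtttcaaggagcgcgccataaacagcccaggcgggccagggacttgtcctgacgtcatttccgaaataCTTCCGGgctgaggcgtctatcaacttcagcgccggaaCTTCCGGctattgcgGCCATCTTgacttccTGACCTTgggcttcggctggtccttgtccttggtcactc
Sdhb (chr5:158547684-158547983, plus strand): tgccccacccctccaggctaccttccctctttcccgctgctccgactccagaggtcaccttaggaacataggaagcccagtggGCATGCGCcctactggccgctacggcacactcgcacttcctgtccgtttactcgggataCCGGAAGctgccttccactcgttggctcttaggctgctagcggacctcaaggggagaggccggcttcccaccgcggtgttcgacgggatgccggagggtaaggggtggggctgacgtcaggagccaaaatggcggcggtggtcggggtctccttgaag
The heart-type genes Cox6a2 and Cox8b held the muscle E-box and none of the other 4 motifs. The liver-type gene Cox8a held the ETS, YY1 and receptor motifs but no E-box, and Sdhb, the iron-sulfur subunit of complex II, held the NRF1 and ETS cores. Of the 95 member symbols, 81 had a promoter sequence. Among those 81, the ETS core was in 25.9%, against 9.22% of 27457 promoters of all genes, the YY1 core in 19.8% against 3.44%, the NRF1 core in 14.8% against 2.66%, the receptor half-site in 12.3% against 4.37% and the E-box in 16.0% against 15.1%. A match describes these letters and is not a site of binding.

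Libraries held 17334954 to 24252103 counts. Transcripts of the mitochondrial genome took 16.4% to 18.8% of the counts in the RA, 18.6% to 20.5% in the LA, 19.1% to 28.0% in the iSAN, 24.1% to 40.8% for the sSAN and 35.0% to 35.4% in the LV, so the share left for nuclear transcripts differed between regions. Levels are therefore given as CPM, the counts of a gene scaled to the size of its library, with that size corrected by the trimmed mean of M values (TMM), and the effect of that scaling is given beside the results it touches. Hcn4, the pacemaker channel that marks the nodes, had 49.0 to 131.8 CPM in sSAN, 46.2 to 67.1 in iSAN and 17.3 to 21.4 in RA libraries. The ventricular light chain Myl2 was at 2060 and 2980 CPM in the LV and at most 0.384 in the RA, and the atrial light chain Myl7 was at 1.48 and 1.71 CPM in the LV against 5395 to 6423 in the RA. The labels of the LV and the nodes thus matched their markers.

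In these hearts the members were abundant. Of the 98, 67 had a mean of 100 CPM or more over the 18 libraries, 16 lay between 20 and 100, 9 between 1 and 20, and 6 were under 1. Per kilobase of deposited gene length, the highest was Atp5f1b, the catalytic beta subunit of complex V, at 2777 CPM per kb in the RA and 4969 in the LV. Cox6a2 followed with 1471 CPM per kb in the RA and 3134 in the LV. Atp5f1a, the alpha subunit, had 1313 and 2775 CPM per kb, and Cox4i1, the common isoform of subunit 4 of complex IV, had 1038 and 2287. Complex V made up the largest part of the summed CPM of all members, with 40.4% for the RA, 40.6% for the LA, 38.5% for the iSAN, 37.3% for the sSAN and 38.3% for the LV. Complex I took 23.5% in the RA and 24.7% in the LV.

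The filter on low counts left 93 members in the tests. The other 5 were the testis isoforms Cox7b2 and Cox8c and the pseudogene-like row Cox6c-ps1, each with 0 counts in all 18 libraries, Ndufa10l1 with 0 to 1 counts, and Cox7a1. Cox7a1, the heart-type subunit 7a, is listed on chromosome 1 from 88620317 to 88621868 with a length of 243 bases and had 0 to 12 counts per library, its 2 highest levels being the LV at 0.547 and 0.986 CPM. It had 8 and 12 counts in the LV and 0 to 3 in the atrial libraries, without overlap, and the fits that kept it called it higher there, with a log2 fold change of 3.32 ± 0.75 with no count filter (SE, edgeR adjusted p = 0.00123) and 3.47 ± 0.91 by DESeq2 (SE, adjusted p = 0.000544). In the other 4 comparisons these 2 fits did not call it. A symbol Cox7a2 for its liver-type partner is not used in the table analysed, so the ratio of this pair was not computed. In 8 rows the span on the chromosome equals the deposited length, which leaves no room for an intron, namely Atp5md, Cycs, Cox6b1 on chromosome 2, Ndufv3 on chromosome 13, Uqcrb on chromosome 1, Cox6c-ps1, Cox7b2 and Ndufa10l1. Reads of a copy with introns and of such a row can be divided between them in counting, so these levels are uncertain. Ndufa1 and Atp5pb scattered widely between libraries of 1 region, with 0.913 to 22.6 CPM and 5.59 to 70.8 CPM in the RA.

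Summed by complex, the LV stood above all other regions, and the sSAN was slightly above the RA on the TMM scale. All members together came to 27402 ± 1314 CPM in the RA (SD, n = 4), 27482 ± 2634 in the LA (n = 4), 26036 ± 2637 for iSAN libraries (n = 4), 30892 ± 1700 for sSAN libraries (n = 4) and 53840 ± 6810 in the LV (n = 2). The 2 LV libraries, at 49024 and 58655 CPM, did not overlap any other library. The lowest sSAN library, at 28997 CPM, was above the highest RA library, at 28853 CPM, by less than the spread within either region, and the sums of complexes IV and V overlapped between these regions. As raw shares of all counts the members took 2.72% to 3.32% in sSAN and 2.86% to 3.07% in RA libraries, which overlapped. The ratio of the LV to the mean of both atria was 2.20 for complex III, 2.06 for complex I, 1.96 for complex IV, 1.88 for complex II and 1.85 for complex V. The ratio of the sSAN to the RA was 1.29 for complex III, 1.26 for complex II, 1.17 for complex I, 1.11 for complex IV and 1.04 for complex V.

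**Figure D1:**
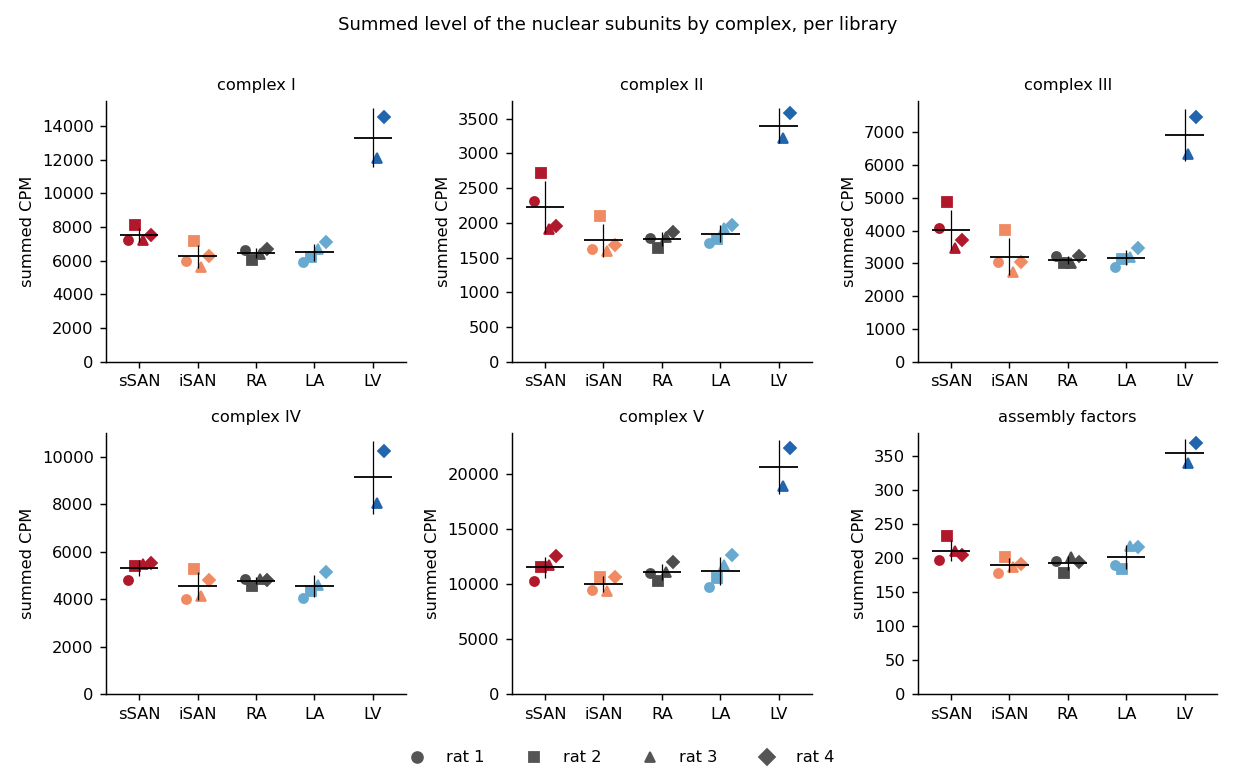
Summed CPM of the members of each complex and of the 8 assembly factors in each library, by region, with 1 marker shape per rat, the mean as a horizontal line and the SD as a vertical line. For all members together the LV libraries sit at 49024 and 58655 CPM and the RA libraries between 25672 and 28853.

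The comparison of the LV with the working atria asks how the ventricle, which carries the systemic load, differs from the RA and LA in these transcripts. Nearly the whole respiratory chain was higher in the LV. Of the 93 tested members, 88 rose and 1 fell (edgeR quasi-likelihood test, Benjamini-Hochberg adjusted p under 0.05), against 24.7% of 14534 genes higher and 24.5% lower. The p-values of these comparisons measure the spread between the samples of a region. The median log2 fold change of the members was 0.97, beside -0.03 for all genes. All 10 members of complex III, all 4 of complex II, all 8 assembly factors and Cycs rose, with 35 of 36 in complex I, 16 of 18 in complex IV and 14 of 16 in complex V. In 87 of the 93 members the 2 LV libraries lay above all 8 atrial libraries, against 25% of all genes tested.

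Among the entry subunits, Sdhb had one of the highest values. Its level was 668 and 764 CPM in the LV, 209 to 237 in the RA and 224 to 260 in the LA, a log2 fold change of 1.59 ± 0.07 (SE, edgeR adjusted p = 2.02e-09). Every LV library was thus far above every atrial library. The membrane anchor Sdhc of the same complex rose less, by 0.72 ± 0.07 (SE, edgeR adjusted p = 1.07e-06). In complex I, the flavoprotein subunit Ndufv2 was at 665 and 818 CPM in the LV and 247 to 276 in the RA, with a log2 fold change of 1.46 ± 0.08 (SE, edgeR adjusted p = 1.07e-08). Ndufa9, an accessory subunit near the quinone site, rose by 1.24 ± 0.07 (SE, edgeR adjusted p = 9.1e-09). Uqcrc1, a core protein of complex III, was at 1328 and 1487 CPM against 465 to 521 in the RA, a log2 fold change of 1.43 ± 0.07 (SE, edgeR adjusted p = 3.99e-09), and cytochrome c1 (Cyc1) rose by 1.30 ± 0.08 (SE, edgeR adjusted p = 3.49e-08). The electron carrier Cycs rose by 0.91 ± 0.06 (SE, edgeR adjusted p = 5.93e-08), in a row without introns. Of the assembly factors, Ndufaf4 rose by 1.07 ± 0.09 (SE, edgeR adjusted p = 3.47e-07) and Ndufaf3 by 0.73 ± 0.08 (SE, edgeR adjusted p = 5.84e-06).

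Fold changes within complex V ranged from 0.08 to 1.13 on the log2 scale. Atp5f1a rose by 1.02 ± 0.08 on the log2 scale (SE, edgeR adjusted p = 4.01e-07) and Atp5f1b by 0.80 ± 0.11 (SE, edgeR adjusted p = 4.66e-05). The ring of subunit c is encoded by 3 genes for the same mature protein. Atp5mc1 was at 604 and 875 CPM in the LV and 309 to 369 in the RA, a log2 fold change of 1.13 ± 0.12 (SE, edgeR adjusted p = 1.06e-05), and Atp5mc3 rose by 1.08 ± 0.09 (SE, edgeR adjusted p = 5.04e-07). Atp5mc2 was at 338 and 433 CPM against 286 to 315, with a smaller log2 fold change of 0.37 ± 0.11 (SE, edgeR adjusted p = 0.0109). Atp5if1, the inhibitor of complex V, was at 71.1 and 101 CPM in the LV and 73.3 to 81.5 in the RA, so the groups overlapped, and its log2 difference was 0.08 ± 0.12 (SE, edgeR adjusted p = 0.619). Differences between these subunits in their fold change were not tested.

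Complex IV held the members that went against the rest. Cox6b2, the testis isoform of subunit 6b, had 1 and 3 counts in the LV libraries and 13 to 58 counts in the atrial libraries. Its LV to atria ratio was 0.107 with an exact 95% counting interval of 0.029 to 0.278, and it fell by 3.09 on the log2 scale (SE 0.63, edgeR adjusted p = 0.00112). Cox8a was at 130 and 194 CPM in the LV and 179 to 190 in the RA, with a log2 difference of -0.06 ± 0.12 (SE, edgeR adjusted p = 0.704). Its heart-type partner Cox8b was at 515 and 654 CPM in the LV, 228 to 263 in the RA and 158 to 280 in the LA, a log2 fold change of 1.32 ± 0.16 (SE, edgeR adjusted p = 7.3e-05). Both isoforms of subunit 6a rose, Cox6a2 by 1.11 ± 0.14 (SE, edgeR adjusted p = 3.52e-05) and Cox6a1 by 0.81 ± 0.11 (SE, edgeR adjusted p = 7.82e-05). The highest fold changes of any member were in low isoforms of complex IV. Ndufa4l2, a paralog of Ndufa4 known from hypoxia, was at 16.9 and 13.7 CPM against 2.50 to 4.71 in the RA, a log2 fold change of 1.94 ± 0.19 (SE, edgeR adjusted p = 1.9e-06). Cox4i2, the isoform of subunit 4 known from lung and oxygen sensing, was at 11.7 and 14.2 CPM against 2.39 to 3.03 in the RA, a log2 fold change of 1.81 ± 0.16 (SE, edgeR adjusted p = 7.75e-07). Their abundant partners Ndufa4 and Cox4i1 rose by 0.84 ± 0.07 (SE, edgeR adjusted p = 2.54e-07) and 1.12 ± 0.09 (SE, edgeR adjusted p = 3.64e-07), and Cox5a, another subunit of complex IV, by 1.06 ± 0.09 (SE, edgeR adjusted p = 3.18e-07). Ndufa1, at -1.57 ± 1.37, and Atp5pb, at 0.64 ± 0.88 (SE), were the remaining members not called, both with the scatter described above.

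These folds are set against the TMM scale. With library totals in its place, the median of all genes moved by -0.54 on the log2 scale. In that fit 72 members stayed higher and 4 were lower, beside 1369 higher and 8702 lower of 14534 genes. The median of the members less that of all genes was 1.00 with TMM and 0.99 on library totals. On library totals the 4 lower members were Atp5if1, Cox6b2, Cox7a2l and Cox8a, and Atp5mc2 changed direction to -0.17. Raw shares showed the same order, since members took 3.65% and 4.12% of all counts in the LV and 2.61% to 3.14% in the atria. In the 70-day rats alone, which are the only source of the LV libraries, 83 members rose and 1 fell, against 21.9% of all genes higher and 19.9% lower. Markers of several cell types moved with this result. Of 9 cardiomyocyte markers tested, 7 rose in the LV, with a summed level of 65317 and 74044 CPM against 41393 to 49173 in both atria, and of 4 tested adipocyte markers 2 rose (Pparg and Fabp4, which other cells express too), with sums over all 8 of 664 to 734 CPM against 192 to 329. Smooth muscle markers rose in 2 of 4, with sums of 207 to 215 CPM against 55.2 to 137. The part of these in the result was not tested. In whole tissue, a larger number of myocytes and more of these transcripts per myocyte cannot be told apart.

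Genes around the respiratory chain were also counted in the LV, where 24.7% of all genes tested were higher and 24.5% lower. Of 35 tested assembly factors outside the member rule, 30 rose and 1 fell, and of 20 mitochondrial carriers, import proteins and matrix enzymes 19 rose. All 13 protein genes of the mitochondrial genome rose, with a median log2 fold change of 1.44. Of 18 regulators of mitochondrial biogenesis, 8 rose. Among them, Perm1, a muscle coactivator of these genes, rose by 1.58 ± 0.12 (SE, edgeR adjusted p = 3.47e-07) and Esrra, which encodes an estrogen-related receptor, by 0.96 ± 0.09 (SE, edgeR adjusted p = 1.28e-06), and Ppargc1a rose by 0.29 ± 0.10 (SE, edgeR adjusted p = 0.0315).

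**Figure D2:**
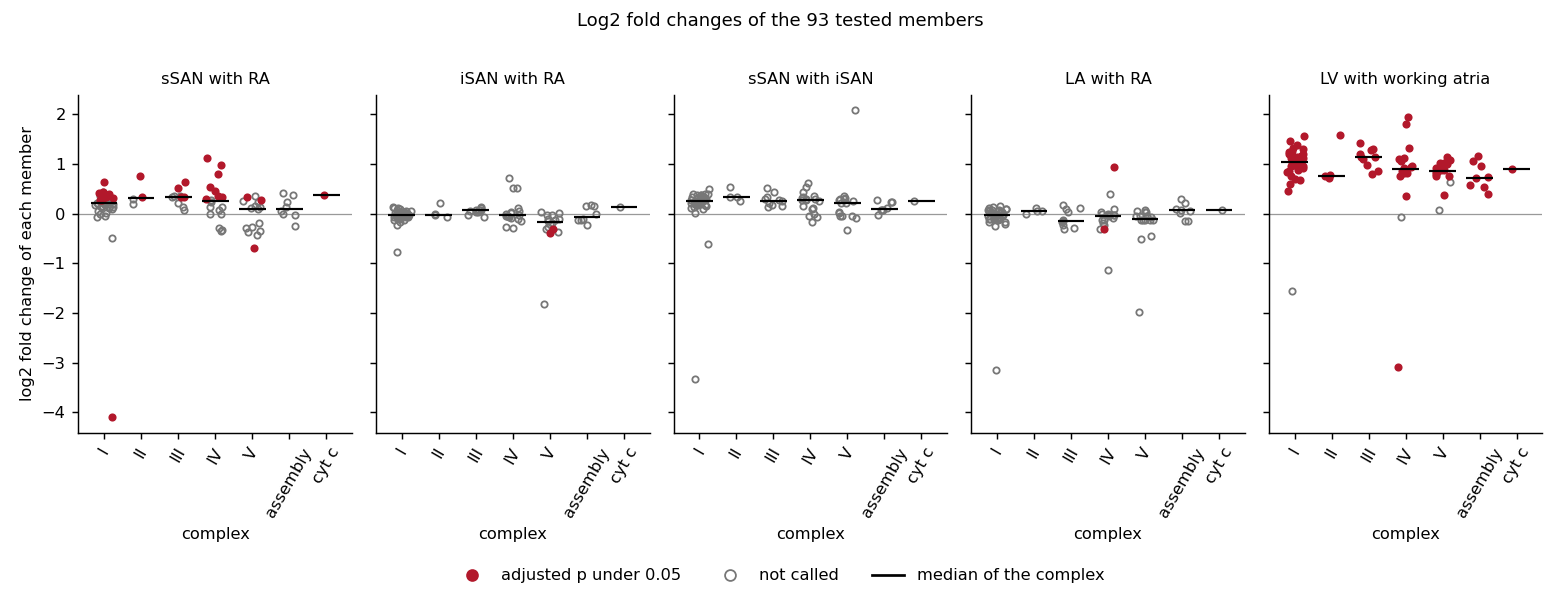
Log2 fold change of each of the 93 tested members in the 5 comparisons, grouped by complex, with filled points for an adjusted p under 0.05 and a line at the median of each complex. In the LV the complex I median is 1.05 and the complex V median 0.86, and in the sSAN they are 0.21 and 0.10.

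The comparison of the sSAN with the RA asks how the upper of the 2 pacemaker regions differs from the working muscle of the same chamber. Part of the respiratory chain was modestly higher in the sSAN. Of the 93 tested members, 30 rose and 2 fell (edgeR, adjusted p under 0.05), against 13.8% of 14038 genes higher and 8.48% lower. The median log2 fold change was 0.21 for the members and 0.02 for all genes. By complex, 13 of 36 members rose in complex I, 2 of 4 in complex II, 4 of 10 in complex III, 8 of 18 in complex IV and 2 of 16 in complex V. Cycs rose, and none of the 8 assembly factors passed the test, of which 3 were higher at an unadjusted p under 0.05. DESeq2 called 33 higher and 2 lower. With the rat as a block, 20 rose and 2 fell, beside 1804 higher and 1314 lower of 14038 genes.

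The liver-type isoforms of complex IV rose and the heart-type isoforms did not. Cox6a1 was at 304, 361, 225 and 187 CPM in the sSAN of rats 1 to 4 and at 140, 115, 122 and 121 CPM in the RA. All 4 sSAN libraries were above all RA libraries, and the log2 fold change was 1.13 ± 0.19 (SE, edgeR adjusted p = 0.00456). The end of Cox6a1 overlaps another gene, Gatc, on the same strand, so part of its count is uncertain. Cox8a was at 284, 356, 215 and 210 CPM in the sSAN and at 190, 187, 179 and 182 CPM in the RA, again without overlap, with a log2 fold change of 0.55 ± 0.16 (SE, edgeR adjusted p = 0.0412). Cox6a2 was at 375, 320, 695 and 817 CPM in the sSAN and at 707, 667, 712 and 710 CPM in the RA. The 2 younger rats were thus low and the 2 older ones near the RA, and over all 4 the log2 difference was -0.33 ± 0.27 (SE, edgeR adjusted p = 0.433). Cox8b showed the same arrangement, with 144, 134, 221 and 271 CPM in sSAN libraries, 263, 228, 258 and 248 in those of the RA, and a log2 difference of -0.36 ± 0.21 (SE, edgeR adjusted p = 0.254).

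The ratio of the heart-type to the liver-type count within a library does not depend on the scaling of libraries. For Cox6a2 to Cox6a1 the log2 ratio was 0.97 ± 1.08 for the sSAN, 1.95 ± 0.75 for the iSAN, 2.49 ± 0.10 in the RA, 2.53 ± 0.23 in the LA (SD, n = 4 each) and 2.80 ± 0.05 in the LV (n = 2). As plain ratios the sSAN libraries of rats 1 to 4 had 1.24, 0.885, 3.10 and 4.36, all below the lowest RA library at 5.05. The difference between the sSAN and the RA was -1.52, with p = 0.0286 in a two-sided exact permutation test, the smallest that 4 against 4 libraries allow, and 0.143 after adjustment over the 10 ratio tests. For Cox8b to Cox8a the log2 ratio was -0.49 ± 0.84 for the sSAN, 0.08 ± 0.44 for the iSAN, 0.43 ± 0.10 in the RA, 0.47 ± 0.25 in the LA (SD, n = 4 each) and 1.87 ± 0.16 in the LV (n = 2). The LV exceeded the 8 atrial libraries by 1.42, with p = 0.0222 in the exact test, the smallest that 2 against 8 allow, and an adjusted value of 0.143. All these exact tests took the libraries as independent, although the regions came from the same rats. The pairing was not used for the ratios, so these p-values are approximate. The sSAN and RA differed by -0.93 (exact p = 0.0571, adjusted 0.167). The iSAN differed from the RA by -0.54 for Cox6a2 to Cox6a1 (exact p = 0.171) and by -0.35 for Cox8b to Cox8a (exact p = 0.143), and the LA from the RA by 0.04 for both (exact p = 0.914 and 0.886). No ratio passed 0.05 after adjustment. Over 10 tests, a single ratio at the smallest p that these sample sizes allow could not pass, so nothing is concluded from this.

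**Figure D3:**
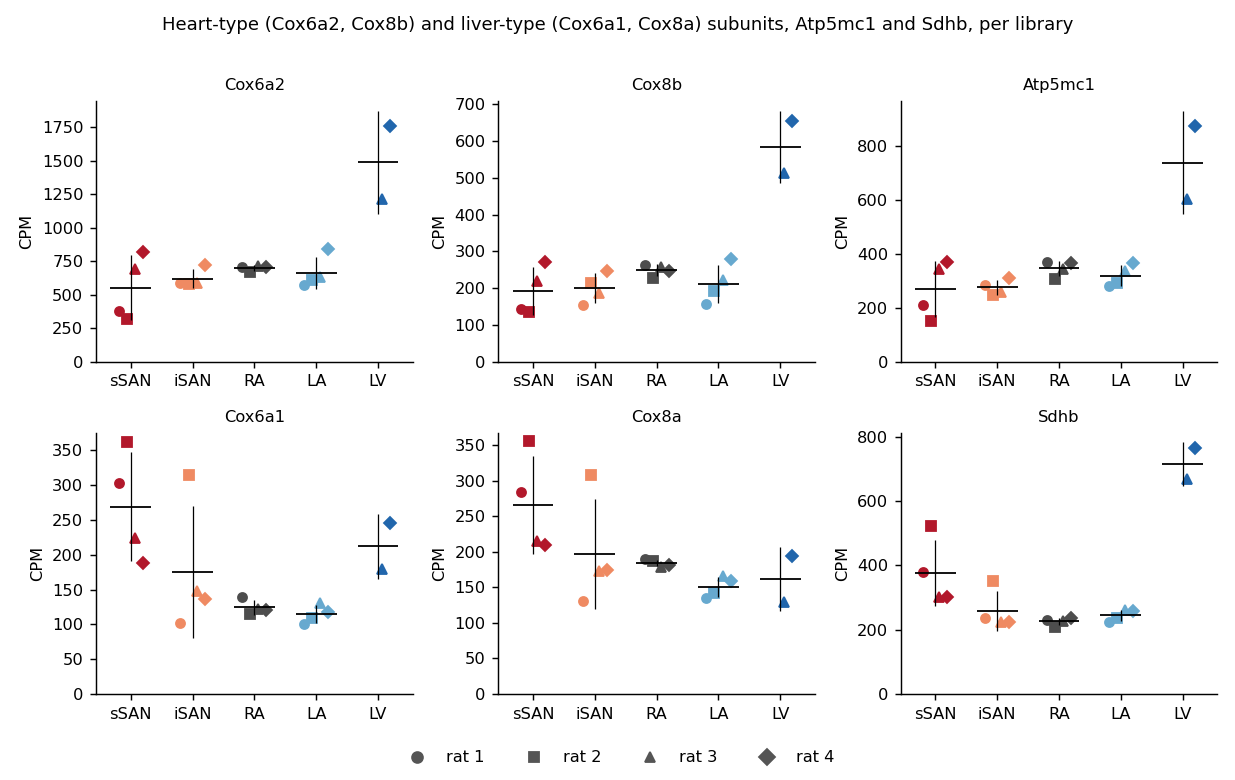
CPM per library of the heart-type genes Cox6a2 and Cox8b, the liver-type genes Cox6a1 and Cox8a, and Atp5mc1 and Sdhb, by region, with 1 marker shape per rat, the mean as a horizontal line and the SD as a vertical line. In the sSAN, rats 1 and 2 lie at 375 and 320 CPM of Cox6a2 and at 304 and 361 CPM of Cox6a1, below and above all RA libraries.

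Sdhb was the highest riser of the entry complexes in the sSAN, at 380, 521, 302 and 300 CPM against 230, 209, 228 and 237 in the RA. The groups did not overlap, and the log2 fold change was 0.75 ± 0.17 (SE, edgeR adjusted p = 0.0154). Sdhc rose by 0.34 ± 0.09 (SE, edgeR adjusted p = 0.0319), while Sdha and Sdhd had log2 differences of 0.29 ± 0.17 and 0.19 ± 0.09 that did not pass (edgeR adjusted p = 0.239 and 0.181). In complex I, the small flavoprotein subunit Ndufv3 on chromosome 20 was at 165, 198, 143 and 141 CPM against 107, 99.6, 101 and 113 in the RA, a log2 fold change of 0.64 ± 0.12 (SE, edgeR adjusted p = 0.00671). Ndufb6, a membrane subunit that overlaps Topors on the same strand, rose by 0.43 ± 0.08 (SE, edgeR adjusted p = 0.00727), and the iron-sulfur subunit Ndufs7 by 0.40 ± 0.09 (SE, edgeR adjusted p = 0.0121). In complex III, Uqcrc1 was at 840, 1040, 599 and 603 CPM against 521, 465, 486 and 521, a log2 fold change of 0.65 ± 0.18 (SE, edgeR adjusted p = 0.0329). Cyc1 rose by 0.51 ± 0.12 (SE, edgeR adjusted p = 0.017) and the small subunit Uqcr10 by 0.34 ± 0.08 (SE, edgeR adjusted p = 0.0202). Cox7a2l2, a row of the subunit 7a family, rose by 0.46 ± 0.10 (SE, edgeR adjusted p = 0.0144), and Cox4i1 by 0.36 ± 0.10 (SE, edgeR adjusted p = 0.0336). The low isoforms Cox4i2 and Ndufa4l2 rose by 0.98 ± 0.24 (SE, edgeR adjusted p = 0.0174) and 0.81 ± 0.25 (SE, edgeR adjusted p = 0.0459), the first from 2.39 to 3.03 CPM in the RA to 3.71 to 6.49 CPM in the sSAN.

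Members of complex V went in both directions. Atp5mf and Atp5f1d rose by 0.33 ± 0.09 and 0.29 ± 0.09 on the log2 scale (SE, edgeR adjusted p = 0.0304 and 0.0405). The catalytic subunit Atp5f1b was at 4529 to 5608 CPM in sSAN and 4544 to 5501 in RA libraries, a log2 difference of 0.09 ± 0.14 (SE, edgeR adjusted p = 0.676). Atp5mc1 was at 209, 153, 343 and 370 CPM in the sSAN and at 369, 309, 344 and 365 in the RA. Rats 1 and 2 were again below the RA and rats 3 and 4 near it, and the log2 difference was -0.35 ± 0.25 (SE, edgeR adjusted p = 0.352). Atp5mc2 and Atp5mc3 had log2 differences of -0.28 ± 0.18 and -0.19 ± 0.20 (SE, edgeR adjusted p = 0.301 and 0.553). The 2 members that fell were Atp5md, by 0.69 ± 0.15 (SE, edgeR adjusted p = 0.0122), which is a row without introns, and Ndufa1, with a log2 fold change of -4.10 ± 0.85 (SE, edgeR adjusted p = 0.0123). Ndufa1 was at 0.353 to 0.797 CPM in the sSAN and at 8.03, 22.6, 0.913 and 8.81 CPM in the RA, and 0.378 to 3.10 in the LA.

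Complex V was the one complex whose median differed in sign between rats. As the median log2 ratio of the sSAN to the RA of the same rat, complex V had -0.34, -0.11, 0.07 and 0.14 in rats 1 to 4. Complex II had 0.34, 0.67, 0.15 and 0.11, and complex III had 0.23, 0.47, 0.24 and 0.23. In the 59-day rats alone, 20 members rose and 11 fell, against 14.2% of all genes higher and 8.23% lower in that fit. Those that fell were 7 of complex V (Atp5if1, Atp5mc1, Atp5mc2, Atp5mc3, Atp5md, Atp5me and Atp5pf), with Cox6a2, Cox8b, Ndufa1 and Ndufaf8. In the 70-day rats alone, 11 rose and 0 fell, with 1 lower at an unadjusted p under 0.05, against 6.52% of all genes higher and 5.54% lower. The test of the difference between ages itself, which was chosen after the values were seen, called 2 of the 93 members, a share near the background of 2.17% of 14038 genes. At an unadjusted p under 0.05 there were 27 members, but no share of all genes at that level is given beside them, so this count is not read further. The 2 members called were Cox6a2, with a log2 fold change of -0.96 at 59 days and 0.10 at 70 days (difference -1.06 ± 0.18, SE, edgeR adjusted p = 0.0232), and Ndufaf8, an assembly factor (difference -0.73 ± 0.16, SE, edgeR adjusted p = 0.0479). Atp5mc1, with -0.88 at 59 days and 0.02 at 70 days, did not pass (edgeR adjusted p = 0.0807). In the iSAN the same test called 0 of 93 members, also at an unadjusted p under 0.05. With 2 rats at each age, age and any other difference between these rats cannot be told apart.

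**Figure D4:**
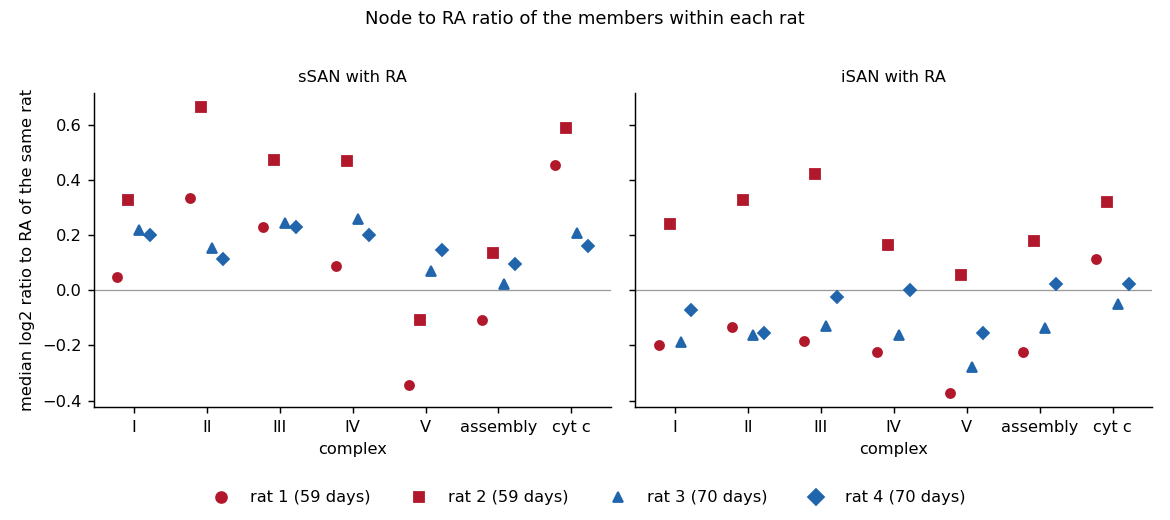
Median log2 ratio of the sSAN (left) and the iSAN (right) to the RA of the same rat, over the tested members of each complex, with red markers for the 59-day and blue markers for the 70-day rats. For complex V in the sSAN the rats sit at -0.34, -0.11, 0.07 and 0.14, and in the iSAN rat 2 is above 0 in every complex.

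Markers of fat moved with these results. Ucp1, the uncoupling protein that defines brown adipocytes, was at 943, 1552, 261 and 155 CPM in sSAN libraries of rats 1 to 4, at 2.43, 724, 84.1 and 16.2 CPM in their iSAN libraries and at most 0.144 CPM in the RA. Brown adipocyte markers summed to 501 to 2652 CPM for the sSAN, 181 to 1322 for the iSAN, 183 to 239 in the RA, 147 to 188 in the LA and 67.7 to 95.8 in the LV. In the RA, LA and LV nearly all of this sum was 1 gene, Cidea. It had 183 to 239 CPM in the RA, 147 to 188 in the LA and 67.5 to 95.8 in the LV. Of 7 matched brown adipocyte markers, 5 could be tested for the sSAN and all 5 rose. For the iSAN, 4 could be tested and 1 rose. Elovl3 and Zic1 were at 0 in both nodes and the RA. General adipocyte markers rose in 8 of 8 for the sSAN and 6 of 8 for the iSAN. Of 9 cardiomyocyte markers, 3 fell in the sSAN and 5 in the iSAN, with sums of 17852 to 33071 CPM for the sSAN, 25880 to 36670 for the iSAN and 41393 to 45703 in the RA. Smooth muscle markers rose in 4 of 4 for both nodes, fibroblast markers in 2 of 4 for the sSAN and 4 of 4 for the iSAN, sinus node markers in 5 of 6 and 4 of 5, and neuron markers in 2 of 3 and 0 of 2. Of 4 markers of atrial myocytes, 0 passed for the sSAN, 3 fell for the iSAN and all 4 fell in the LV, where all 4 ventricular markers rose. No tested skeletal muscle marker passed in any of these comparisons. With the linear CPM of the adipocyte gene Adipoq as a covariate, chosen after the values were seen, 13 members rose and 0 fell for the sSAN, and 7 of the 13 were among the 30. With its log2 CPM, 0 rose and 0 fell, with 9 higher and 2 lower at an unadjusted p under 0.05. Adipoq was at 202 to 1017 CPM in sSAN libraries and at most 0.478 in RA libraries, so on the log scale it separates the regions as the region term does, and the loss of calls in that fit says nothing about fat. Cox6a1 and Sdhb were highest in rat 2 and lowest in rats 3 and 4 of the sSAN, and highest in rat 2 of the iSAN, as was Ucp1 in each of the nodes. The part of fat and of fewer myocytes in these differences was not tested further.

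The count of members higher in the sSAN also rested on scaling and on single libraries. With library totals in place of TMM, the median of all genes moved by -0.20 on the log2 scale and 3 members stayed higher (Cox6a1, Ndufv3 on chromosome 20 and Sdhb), while the median of the members less that of all genes was 0.19 with TMM and 0.20 without. Leaving out 1 library at a time, 6 of 93 members were higher without RA of rat 2, 11 without RA of rat 3, 12 without RA of rat 1 or of rat 4, and 17 without sSAN of rat 1. Over all genes, 1179 of 14248 were higher without RA of rat 2 and 1302 of 14252 without RA of rat 3. Without RA of rat 1 or of rat 4 these were 1294 of 14251 and 1289 of 14236, and without sSAN of rat 1 they were 1377 of 14179. With rat 2 left out of both regions, 8 members rose and 1 fell, beside 1010 higher and 741 lower of 14099 genes. The median of the members stayed between 0.15 and 0.23 in the fits that left out a library or rat 2, and was 0.03 on library totals.

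Around the chain, 7 of 35 assembly factors outside the rule rose in the sSAN, against 13.8% of all genes tested. So did 5 of 20 mitochondrial carriers, import proteins and matrix enzymes, and 11 of 13 protein genes of the mitochondrial genome, the last with a median log2 fold change of 1.07. Of 18 regulators, 2 rose, below the share of all genes. These were Esrra, at 0.51 ± 0.11 (SE, edgeR adjusted p = 0.0131), and Tfb1m, and Ppargc1a had a log2 difference of -0.06 ± 0.27 (SE, edgeR adjusted p = 0.905).

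In the iSAN no member rose over the RA. Of the 93 tested members 0 rose and 2 fell (edgeR, adjusted p under 0.05), against 10.4% of 14066 genes higher and 6.16% lower, with 2 higher and 7 lower at an unadjusted p under 0.05 and 0 higher and 4 lower by DESeq2. The median log2 fold change was -0.02, beside 0.01 for all genes. Both members that fell belong to complex V. Atp5if1 was at 52.8, 56.3, 54.8 and 71.3 CPM in the iSAN and at 77.7, 73.3, 80.1 and 81.5 CPM in the RA. It was lower in each rat without overlap and fell by 0.39 ± 0.10 on the log2 scale (SE, edgeR adjusted p = 0.0234). Atp5mc2 was at 227, 236, 235 and 278 CPM in the iSAN and at 312, 286, 315 and 313 CPM in the RA, and fell by 0.31 ± 0.08 (SE, edgeR adjusted p = 0.0302). With the rat as a block, Atp5mc1 fell too and Cox4i2 rose, giving 1 higher and 3 lower, beside 1627 higher and 1164 lower of 14066 genes. The 2 calls were lost without RA of rat 1, rat 3 or rat 4 and without iSAN of rat 3, each leaving 0 lower, while 4 were lower without iSAN of rat 2 and 5 without iSAN of rat 4. With rat 2 left out of both regions 1 was lower (Ndufa11), and with linear Adipoq as a covariate 3 were (Atp5me, Atp5mg and Cox8a), so Atp5if1 and Atp5mc2 lost their calls in both.

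Rat 2 set the iSAN libraries apart from each other. Its median log2 ratio of the iSAN to the RA over the members was 0.22, with 78 of 93 above 0, while rats 1, 3 and 4 had -0.22, -0.20 and -0.05, with 8, 11 and 35 above 0. In that library Cox6a1 was at 315 CPM, against 102, 148 and 137 in the iSAN of rats 1, 3 and 4. Sdhb was at 352 CPM against 237, 222 and 224, and Cox8a at 309 against 131, 173 and 175. The same library had the highest Ucp1 of the iSAN, and the part of that in its levels was not tested.

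Between the nodes themselves no member passed the test. In the comparison of the sSAN with the iSAN, 0 members were higher and 0 lower (edgeR), against 0% of 14301 genes higher and 0.00699% lower, with 31 higher and 1 lower at an unadjusted p under 0.05 and 2 higher and 1 lower by DESeq2. No share of all genes is given beside the unadjusted counts. The median log2 difference was 0.25 for the members and 0.00 for all genes, and 51 members were higher in the sSAN of all 4 rats, against 13.8% of all genes tested. Within rats 1 to 4 the median was 0.24, 0.06, 0.40 and 0.26. Same-numbered libraries of the 2 nodes did not all deviate together, with a correlation of -0.02 in rat 1, so values within a rat are less certain here. Cox7a2l2, at 203, 237, 249 and 195 CPM in sSAN libraries against 139, 168, 155 and 147 in iSAN libraries, did not overlap and had a log2 difference of 0.54 ± 0.11 (SE, edgeR adjusted p = 0.29). It was 1 of the 2 genes DESeq2 called higher, with Ndufs3. On library totals the median was 0.04 for the members and -0.21 for all genes.

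Few members separated the LA from the RA. Of 93 members, 1 rose and 1 fell in the LA with the RA (edgeR), against 4.37% of 13904 genes higher and 4.26% lower, with a median log2 difference of -0.03 for the members and 0.00 for all genes. Cox4i2 was at 4.70, 4.17, 5.05 and 6.29 CPM in the LA and at 2.39, 2.55, 3.03 and 2.46 CPM in the RA. All LA libraries were higher, and the log2 fold change was 0.94 ± 0.17 (SE, edgeR adjusted p = 0.00469). Cox8a was at 135, 142, 166 and 159 CPM in the LA and at 190, 187, 179 and 182 in the RA, and fell by 0.30 ± 0.07 (SE, edgeR adjusted p = 0.0168). Cox6b2 had a log2 difference of -1.14 ± 0.33 (SE, edgeR adjusted p = 0.0563). With the rat as a block the count became 5 higher (Cox4i2, Ndufa10, Ndufaf1, Ndufaf5 and Uqcrc2) and 5 lower (Atp5md, Cox6b2, Cox8a, Ndufa1 and Ndufa11). Over all genes that fit called 1247 higher and 1245 lower of 13904, so the share of members was below that of all genes in both directions. Without LA of rat 4, 10 were lower, beside 500 of 14046 genes. Without RA of rat 1 or LA of rat 2 the call of Cox8a was lost and 0 were lower, and without RA of rat 3, 2 were lower.

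Across the regions, Cox4i2 was lowest in the RA at 2.61 ± 0.287 CPM, with 4.20 ± 1.43 for the iSAN, 5.05 ± 0.904 for the LA and 5.11 ± 1.56 for the sSAN (SD, n = 4 each), of which the last 3 overlapped, and 12.9 ± 1.78 in the LV (n = 2). Cox8a ran from 151 ± 14.3 CPM in the LA through 162 ± 45.2 in the LV (n = 2), 184 ± 4.77 in the RA and 197 ± 77.4 for the iSAN to 266 ± 68.8 for the sSAN (SD, n = 4 elsewhere). The comparisons share the RA libraries, so they are not independent of each other.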

How the data were processed

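Total RNA of 18 libraries was sequenced on an Illumina HiSeq as paired reads. The authors removed reads with adapters, unknown bases or low quality, aligned with HISAT2 to a rat release named in the methods, counted reads per gene with HTSeq 0.6.1 and used DESeq2. The deposited table gives raw counts, FPKM computed by the authors, and gene length per gene. FPKM served only as an alternative for the isoform ratios. It divides counts by gene length and a factor shared within a library. Differences between regions in these ratios therefore stay nearly the same by construction. No ratio had passed after adjustment, so there was no call to change, and nothing is concluded from this alternative. The authors' fold changes and p-values were not used, nor were 72 columns of normalized values. The genome build is not given in the sources used here.

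Counts were filtered with filterByExpr, scaled by TMM and tested with the quasi-likelihood test of edgeR 4.0.16 (limma 3.58.1, R 4.3.3) over all genes of the 2 regions compared, with Benjamini-Hochberg adjusted p under 0.05. The script was tested on simulated data. Isoform ratios used a pseudocount of 0.5 counts and an exact permutation test. Libraries held 17334954 to 24252103 counts and their number per region is small. The 95% counting interval covers counting error only.

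The members and lists were chosen with earlier results of these data known. Named genes were the heart-type and liver-type isoforms, the 2 called members of smallest p in each class, up to 3 called members against the main direction, other isoform sets, and the members highest or lowest per length. Others named were chosen after their values were seen.

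Sample titles carry a number taken as the rat. Same-numbered libraries deviated together over 15248 genes (correlation 0.21 to 0.24 for the LA and RA, 0.12 to 0.22 for the iSAN and RA, 0.12 to 0.17 for the sSAN and RA), so the numbers pair the samples there. Between the sSAN and iSAN, same-numbered libraries had -0.02 to 0.45 and differently numbered ones -0.34 to 0.21. These ranges overlapped, so the pairing of the nodes is less certain. A fit with the rat as a block was an alternative. Others were DESeq2 1.42.0, RLE size factors, no count filter, all 5 regions in the fit, library totals, no mitochondrial genes, each age alone, rat 2 left out, Adipoq as a covariate and each library left out.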

Additional observations from a re-analysis of the deposited data

Results flagged for a closer look

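In 12 of 172 groups of 4 values, 1 library stood far from the other 3 by Dixon's test at 95%, which chance gives in about 1 of 20 groups. In the iSAN, rat 2 was highest for the summed CPM of complex II at 2092, for Sdhb at 352 CPM and for Sdhc at 426 CPM. In the sSAN, rat 2 was far from the others for Ndufa4 at 617 CPM and for Ndufv2 at 397 CPM. In the RA, rat 2 was lowest for complex IV in sum at 4552 CPM, for Atp5mc2 at 286 CPM and for Cox6a2 at 667 CPM, and rat 1 had the lowest log2 ratio of Cox6a2 to Cox6a1 at 2.34. Rat 4 was highest for Cox6a2 in the iSAN at 726 CPM and for Ndufa4l2 in the LA at 5.68 CPM, and rat 2 for Ndufa1 in the LA at 3.10 CPM.

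In the sSAN with the RA, the log2 fold change at 59 days less that at 70 days was -1.06 for Cox6a2 and -0.73 for Ndufaf8, both past the threshold in the edgeR test of the difference. The causes were not tested.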

How the results depend on the processing

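Of 46 named results called, 24 kept their direction and call in every alternative run. All 24 were of the LV, which gave 25 of the 46. No result of the sSAN, iSAN or LA kept its call in every run. With rat 2 left out, a fit not run for the LV, 7 results kept their call and 14 did not. With log2 Adipoq as a covariate, a fit run only for the nodes with the RA, 13 lost their call and 6 changed sign. The number of members higher in the sSAN with the RA (30) became 19 with no count filter, 3 on library totals, 11 in 70-day rats, 8 with rat 2 left out, 13 with linear Adipoq and 0 with log2 Adipoq as a covariate. The number lower (2) became 0 in 70-day rats, 11 in 59-day rats, 1 without rat 2, and 0 with either Adipoq covariate. With the rat as a block it was 20 higher and 2 lower. Over all genes, the 1932 of 14038 higher became 1810 of 20645 with no count filter, 1191 of 14038 on library totals and 924 of 14179 in 70-day rats. They became 1010 of 14099 with rat 2 left out, 1006 of 14038 with linear Adipoq and 1 of 14038 with log2 Adipoq. For the iSAN with the RA, the rat block gave 1 higher (0 before), and the 2 lower became 4 by DESeq2, 0 with all 5 regions, 1 on library totals, 0 in either age alone, 1 without rat 2, 3 with linear Adipoq (these last 2 fits share 0 calls with the 2) and 0 with log2 Adipoq. Between the nodes (0 and 0), DESeq2 gave 2 higher and 1 lower, all 5 regions 1 higher and leaving out rat 2 gave 1 lower. For the LA with the RA, the 1 higher became 5 with the rat block and 0 in either age alone, and the 1 lower became 4 by DESeq2, 3 with no filter, 0 with all 5 regions, 5 with the block, 3 on library totals, 0 in 70-day rats, 6 in 59-day rats and 0 without rat 2. Over all genes of the LA with the RA, the block gave 1247 higher and 1245 lower of 13904. In the LV, 4 were lower on library totals (1 before), beside 8702 of 14534 genes, and the block gave 86 higher and 1 lower.

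With log2 Adipoq as a covariate, the sSAN with RA values turned to -0.73 for Cox6a1, -0.99 for Cox8a, -0.055 for Ndufv3 on chromosome 20, -0.41 for Sdhb, -0.12 for Cyc1 and -0.40 for Cycs, and Atp5mc2 in the LV was -0.17 on library totals. On the log scale Adipoq separates the regions as the region term does, so its values here are not read as effects corrected for fat. That fit called 1 higher and 1 lower of 14038 genes. Fewer samples entered the fits of 1 age. The causes of the other changes were not tested.

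Leaving out 1 library at a time, the members higher and lower ranged from 6 to 28 and 2 to 4 for the sSAN with the RA, 0 to 1 and 0 to 5 for the iSAN with the RA, 0 to 0 and 0 to 1 between the nodes, 1 to 1 and 0 to 10 for the LA with the RA, and 81 to 88 and 1 to 2 for the LV. The log2 ratio of Cox6a2 to Cox6a1 ranged from -1.91 to -1.14, -0.73 to -0.19, -1.36 to -0.60, -0.07 to 0.12 and 0.25 to 0.34 in the same order, and that of Cox8b to Cox8a from -1.22 to -0.62, -0.50 to -0.15, -0.86 to -0.27, -0.08 to 0.12 and 1.30 to 1.53. With 2 LV libraries and 4 in each other region, small differences could not be resolved.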
